A study of Homo sapiens with 18 samples.

Results

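The genes described here are the suppressors most often lost in clear cell renal cell carcinoma (ccRCC) and the subunits of the chromatin remodelling complexes PBAF and BAF to which one of them, PBRM1, belongs. They were chosen by name: PBRM1, VHL, SETD2, BAP1, ARID1A, ARID2, BRD7, SMARCA4, SMARCB1 and SMARCC1. Of these 10 genes, 9 have a row among the 13141 genes of the expression table, and ARID1A has none under its symbol or a synonym. The question was whether the arrays show the knockdown of PBRM1, and whether the partner subunits or the other suppressors moved with it.

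The arrays were Illumina HumanHT-12 V4 BeadChips hybridised with RNA of 786-O cells, a human ccRCC line that lacks functional VHL. The 18 arrays fall into 6 groups of 3. VHL-/- cells are the parental state and VHL+/+ cells have VHL re-expressed. In each background, cells stably carried a control shRNA (SCR), 1 shRNA against PBRM1 or 1 shRNA against KDM5C, an H3K4 demethylase that is also mutated in ccRCC. All groups are derived from the same line, and the labels name no treatment besides the VHL state and the shRNA. A single shRNA construct stands for each knockdown, and the sources used here do not say whether the VHL+/+ cells are a clone or which promoter drives VHL. Replicates 1 and 2 of each group lay on chip 1 and replicate 3 on chip 2. Nothing in the labels says that replicates came from separate cultures, so p-values measure the spread between these samples only, which may be technical. Group names below are those of the labels.

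PBAF and BAF are multi-subunit machines that use ATP to slide or evict nucleosomes. They share a core of the ATPase SMARCA4 (or its paralog SMARCA2), the scaffold pair SMARCC1 and SMARCC2 and the subunit SMARCB1. PBRM1, ARID2 and BRD7 are found in PBAF, whereas ARID1A marks BAF. VHL is the substrate receptor of an E3 ubiquitin ligase that destroys hydroxylated HIF-alpha, so that HIF targets are high in VHL-deficient kidney tumors. SETD2 places trimethylation on lysine 36 of histone H3 in transcribed genes, and BAP1 removes ubiquitin from histone H2A. The short arm of chromosome 3, lost in most ccRCC, carries PBRM1, VHL, SETD2 and BAP1, and SMARCC1 also lies on chromosome 3, so that 5 of the 9 measured genes are on this chromosome.

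Values are log2 signals per gene, and changes are differences of log2 signal. A probe's brightness depends on its sequence, so a gene's percentile of signal in the table tells how bright its row is on the array and not how abundant its transcript is next to another. Comparisons come from 1 limma model of the 18 arrays that holds the group and the chip, and a gene passed at adjusted p under 0.05 over all 13141 genes. Of the 9 genes, 7 had a mean signal above that of the median gene, while PBRM1 (percentile 40.4) and ARID2 (percentile 44.2) lay below it. The chip effect passed the same threshold for 3130 genes and for 0 of the 9, whose adjusted p for the chip was 0.0634 or higher. Of markers of kidney tubule and renal carcinoma, PAX8 was at percentile 66.8 of mean signal, CDH2 at 98.2 and VIM at 99.7, whereas LHX1 (percentile 42.7) and KRT18 (percentile 41.1) lay under the median gene. PAX2 and CA9 have no row. Some of these markers moved with the groups: on the mean of the arms CDH6 rose by 1.01 and KRT8 by 0.30 in VHL+/+ cells and LHX1 fell by 0.16, and LHX1 also fell by 0.28 with PBRM1 shRNA and fell by 0.19 with KDM5C shRNA, where KRT8 rose by 0.38. Their part in the results was not tested. Of 9 markers of other cell types, only 3 have a row: the endothelial PECAM1 at percentile 11.1, the hepatocyte gene ALB at 30.5 and CD68, a lysosomal protein of macrophages and other cells, at 68.0, above PAX8. These signals do not settle the cell type of the line. CD68 was lower in VHL+/+ than in VHL-/- cells in the SCR arm (-0.44, adjusted p = 0.0231, limma) and on the mean of the arms (-0.23, adjusted p = 0.0147), and its part in the results was not tested.

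The VHL labels could be checked with targets of HIF. Of 14 targets listed, 10 have a row, and on the mean of the 3 shRNA arms all 10 had lower values in VHL+/+ than in VHL-/- cells and 9 of them passed, beside 6.17% lower of all genes, with a median change of -0.67 against 0.003 over all genes. CCND1 (cyclin D1) fell by 1.63, ADM (adrenomedullin) fell by 1.93 and SLC2A1 (the glucose transporter GLUT1) fell by 1.16 on the log2 scale. The knockdown of KDM5C could not be checked, because KDM5C has no row.

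PBRM1 is the target of the shRNA and was examined first. In VHL-/- cells its log2 signal was 7.41, 7.24 and 7.26 with SCR against 7.16, 7.18 and 7.38 with PBRM1 shRNA. In VHL+/+ cells it was 7.38, 7.46 and 7.22 with SCR against 7.51, 7.09 and 7.02 with PBRM1 shRNA. The groups overlapped in both backgrounds, and the highest PBRM1 signal of the VHL+/+ cells came from an array labelled PBRM1 shRNA. The KDM5C shRNA arrays, whose cells carry no PBRM1 construct, gave 7.40, 7.52 and 7.06 in VHL-/- and 7.22, 7.41 and 7.24 in VHL+/+ cells, thus spanning the same range.

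In limma, PBRM1 changed by -0.06 (SE 0.12, adjusted p = 0.864) with PBRM1 shRNA in VHL-/- cells and by -0.15 (SE 0.12, adjusted p = 0.639) in VHL+/+ cells. The mean over both backgrounds was -0.10 (SE 0.084, adjusted p = 0.515), or -7.01% with a 95% interval from -17.8% to 5.20%. A larger reduction of the signal is outside this interval. All 3 values moved with single arrays. Without replicate 1 of the VHL-/- PBRM1 shRNA cells the VHL-/- value became 0.001, and over all 18 omissions it ranged from -0.20 to 0.001. The VHL+/+ value ranged from -0.28 without replicate 1 to -0.06 without replicate 2 of the VHL+/+ PBRM1 shRNA cells, and the mean from -0.17 to -0.06 without the same arrays. Within chip 1 the VHL-/- value was -0.15 and within chip 2 it was 0.12, while the VHL+/+ value was -0.12 and -0.20. PBRM1 against the KDM5C shRNA arrays gave -0.09 in VHL-/- and -0.08 in VHL+/+ cells (adjusted p = 0.969 and 0.995), and the difference between the backgrounds in the PBRM1 shRNA effect was -0.08 (SE 0.17, adjusted p = 1.000).

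Properties of the PBRM1 row were recorded beside this result. Its mean signal of 7.29 (percentile 40.4) lay 1.01 above the lowest value of the table (6.27), and its residual SD of 0.159 was at percentile 77.8 of all genes. The signal was thus under that of the median gene and more variable than most. The part of either in the PBRM1 result was not tested. Which part of the transcript the probes read is not given in the sources used here, and the part of background light in the PBRM1 signal was not tested. The arrays read RNA, so the PBRM1 row does not measure PBRM1 protein. From protein blots, the paper reports less IRF9 and STAT2 in 786-O cells with PBRM1 knocked down by shRNA. The 3 genes below followed the PBRM1 signal most closely over the 18 arrays after the chip effect was removed: BCL2L15 (r = 0.92), INF2 (r = 0.89) and GEMIN5 (r = 0.88). These correlations are descriptive, and the arrays share their groups and chips.

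PBRM1 passed the test between the VHL backgrounds in no arm. VHL+/+ minus VHL-/- was 0.05 in SCR, -0.03 in PBRM1 shRNA and -0.04 in KDM5C shRNA cells, and -0.01 on the mean of the arms, with a 95% interval from -10.0% to 10.0%. HIF binds DNA at hypoxia response elements with the core RCGTG, so the sequence upstream of the PBRM1 starts was examined for ACGTG and GCGTG on both strands. The windows are the 250 bases upstream of 2 annotated starts in RefSeq (GRCh38.p14, minus strand), at chr3:52685914-52686163 and chr3:52685600-52685849, shown 5′ to 3′ with each match in capitals.
PBRM1, first start: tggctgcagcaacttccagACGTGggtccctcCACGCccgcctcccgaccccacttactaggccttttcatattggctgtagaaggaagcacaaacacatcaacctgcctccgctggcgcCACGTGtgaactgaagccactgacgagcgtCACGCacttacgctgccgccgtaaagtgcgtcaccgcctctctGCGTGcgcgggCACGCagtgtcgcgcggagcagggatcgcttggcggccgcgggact
PBRM1, second start: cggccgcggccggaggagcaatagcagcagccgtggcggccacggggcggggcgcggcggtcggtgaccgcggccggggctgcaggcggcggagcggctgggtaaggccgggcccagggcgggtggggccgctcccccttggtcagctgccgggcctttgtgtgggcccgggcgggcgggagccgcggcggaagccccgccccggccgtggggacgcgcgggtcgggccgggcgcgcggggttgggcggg
The first window holds 7 matches, 3 to ACGTG and 4 to GCGTG, of which a pair on opposite strands overlap in the palindromic CACGTG. The second window holds 0. Of 10 genes, 6 had a window in RefSeq (PBRM1, SETD2, ARID1A, BRD7, SMARCA4 and SMARCB1), and 4 of their 8 windows held a match, beside 43.2% of all 35116 windows. A match is a description of letters and not a bound site.

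**Figure D1:**
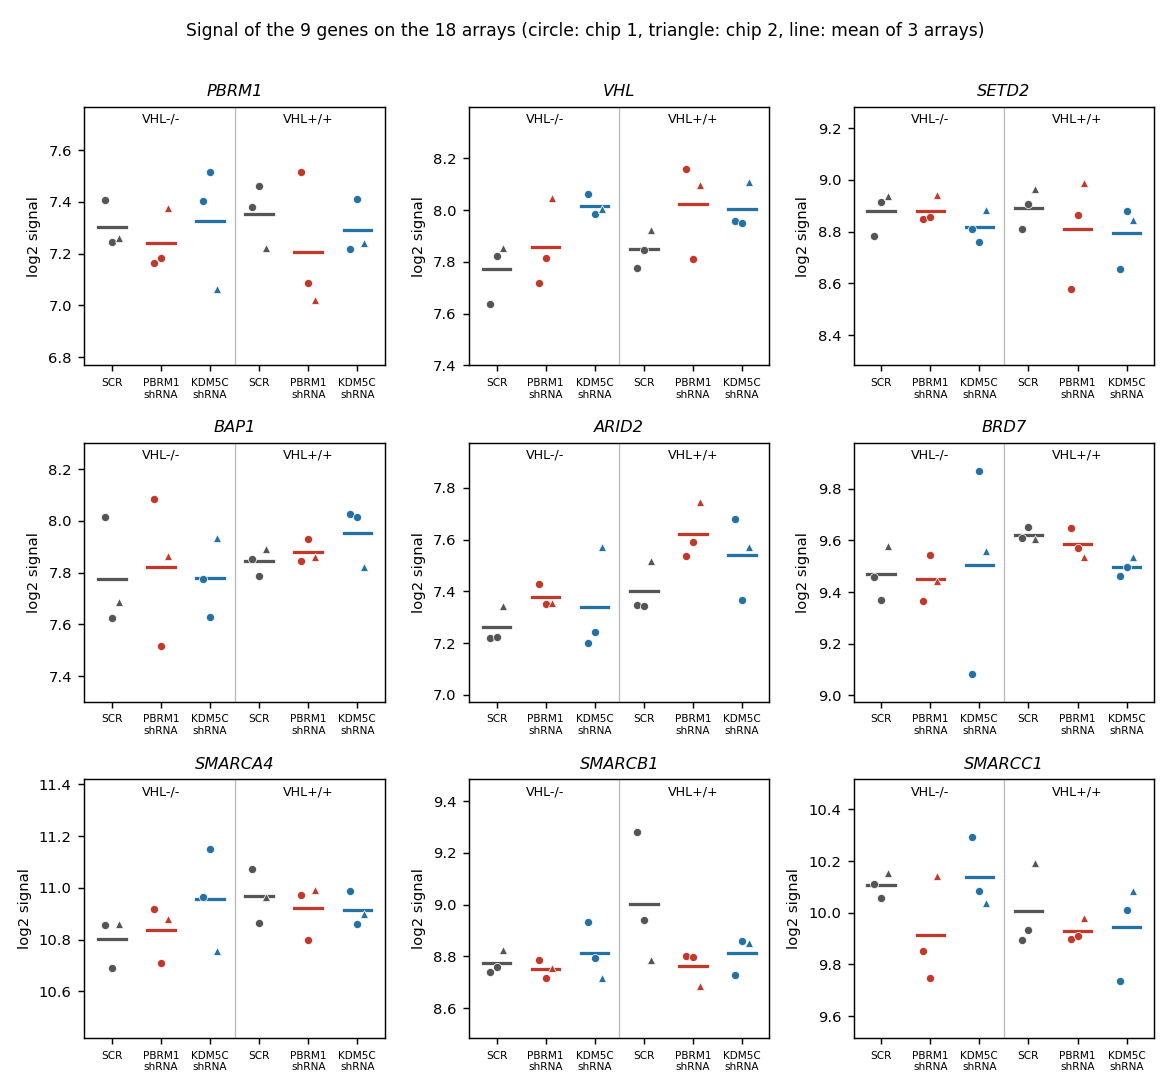
Log2 signal (y axis, 1 unit high in every panel) of the 9 genes on the 18 arrays, by group (x axis); circles are arrays on chip 1, triangles are arrays on chip 2 and lines are the means of 3 arrays. The PBRM1 signal on the PBRM1 shRNA arrays (7.02 to 7.51) overlapped that of the SCR arrays (7.22 to 7.46), and ARID2 was highest in the VHL+/+ PBRM1 shRNA cells.

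With PBRM1 shRNA, 0 of the 9 genes passed the test in VHL-/- cells, where 5.43% of all genes did, and 0 of 9 passed in VHL+/+ cells, where 2.49% did. At an unadjusted p under 0.05 in limma the counts were 0 and 2, beside 18.1% and 15.3% of all genes. On the mean of both backgrounds 0 of 9 passed, beside 11.7% of all genes, and 2 (ARID2 and VHL) were under 0.05 before adjustment, beside 23.7%. The median change of the 9 genes was 0.004 in VHL-/- and -0.05 in VHL+/+ cells, against -0.001 and 0.003 over all genes. The 95% intervals of the 9 genes together ran from -24.3% to 24.7% in VHL-/- and from -26.5% to 32.0% in VHL+/+ cells. After the chip effect was removed, the SCR and PBRM1 shRNA arrays did not overlap for 1 gene of 9 in VHL-/- cells (SMARCC1) and for 2 in VHL+/+ cells (ARID2 and SMARCB1), beside 24.1% and 21.7% of all genes.

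The partners of PBRM1 in the complex were taken in turn. ARID2, the DNA-binding subunit of PBAF, was at 7.22, 7.22 and 7.34 with SCR and at 7.43, 7.35 and 7.35 with PBRM1 shRNA in VHL-/- cells. In VHL+/+ cells it was at 7.35, 7.34 and 7.52 with SCR and at 7.54, 7.59 and 7.74 with PBRM1 shRNA. Every PBRM1 shRNA array thus read above every SCR array of its background, narrowly so for the nearest arrays, and after the chip effect was removed this held in VHL+/+ cells only. The limma estimate was 0.12 (SE 0.085, adjusted p = 0.549) in VHL-/- cells, 0.22 (SE 0.085, adjusted p = 0.210) in VHL+/+ cells and 0.17 (SE 0.060, adjusted p = 0.0859) on the mean, so the change missed the threshold. The mean passed without replicate 3 of the VHL-/- PBRM1 shRNA cells (0.20, adjusted p = 0.0400) and without replicate 1 of the VHL+/+ KDM5C shRNA cells (0.17, adjusted p = 0.0432). It also passed when only the SCR and PBRM1 shRNA arrays were fitted (adjusted p = 0.0365).

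SMARCC1 (BAF155), a scaffold of the core, read 10.11, 10.06 and 10.15 in VHL-/- SCR cells and 9.85, 9.75 and 10.14 in VHL-/- PBRM1 shRNA cells. On chip 1 both PBRM1 shRNA arrays were below the SCR arrays, with a difference of -0.28, whereas the arrays on chip 2 differed by -0.009. The estimate of -0.19 (SE 0.099, adjusted p = 0.325) did not pass. Compared with KDM5C shRNA in VHL-/- cells, SMARCC1 was at -0.22 (SE 0.099, adjusted p = 0.907, unadjusted p = 0.0379).

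SMARCB1 (SNF5), a core subunit lost in rhabdoid tumors, read 9.28, 8.94 and 8.79 in VHL+/+ SCR cells and 8.80, 8.80 and 8.69 in VHL+/+ PBRM1 shRNA cells. Replicate 1 of the VHL+/+ SCR cells was the highest of the 18 arrays for SMARCB1, and the other 17 lay between 8.69 and 8.94. The estimate was -0.24 (SE 0.095, adjusted p = 0.223), with a difference of -0.31 within chip 1 and -0.10 within chip 2, and it became -0.11 (adjusted p = 0.690) without that array. The same SCR arrays enter the comparison with KDM5C shRNA (-0.19, adjusted p = 0.305) and the VHL comparison in the SCR arm (0.23, adjusted p = 0.242), so these are not separate observations. In the VHL comparison the within-chip values were 0.36 and -0.04.

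SMARCA4 (BRG1), the ATPase, was among the brightest genes of the table (percentile 93.3) and changed by 0.03 in VHL-/- and -0.05 in VHL+/+ cells with PBRM1 shRNA (adjusted p = 0.922 and 0.896). Its signals were 10.86, 10.69 and 10.86 in VHL-/- SCR cells and 10.92, 10.71 and 10.88 in VHL-/- PBRM1 shRNA cells, which overlap. BRD7, the bromodomain subunit of PBAF, changed by -0.02 and -0.04 (adjusted p = 0.974 and 0.942). For BRD7 the VHL-/- KDM5C shRNA arrays alone spanned 9.08 to 9.87, wider than the other 15 arrays (9.37 to 9.65).

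Paralogs could in principle stand in for a subunit, and 3 of the 4 listed have a row, as ARID1B has none. SMARCA2 (BRM), the alternative ATPase, was at -0.22 with PBRM1 shRNA in VHL-/- and -0.15 in VHL+/+ cells (adjusted p = 0.303 and 0.582). SMARCC2 (BAF170), the partner of SMARCC1, was at 0.08 and -0.07 (adjusted p = 0.620 and 0.716). BRD9, which belongs to another form of the complex and resembles BRD7, was at -0.12 and -0.05 (adjusted p = 0.668 and 0.898). No paralog passed in either shRNA comparison, and at an unadjusted p under 0.05 SMARCA2 was lower on the mean of both backgrounds with each shRNA (-0.19 and -0.21).

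**Figure D2:**
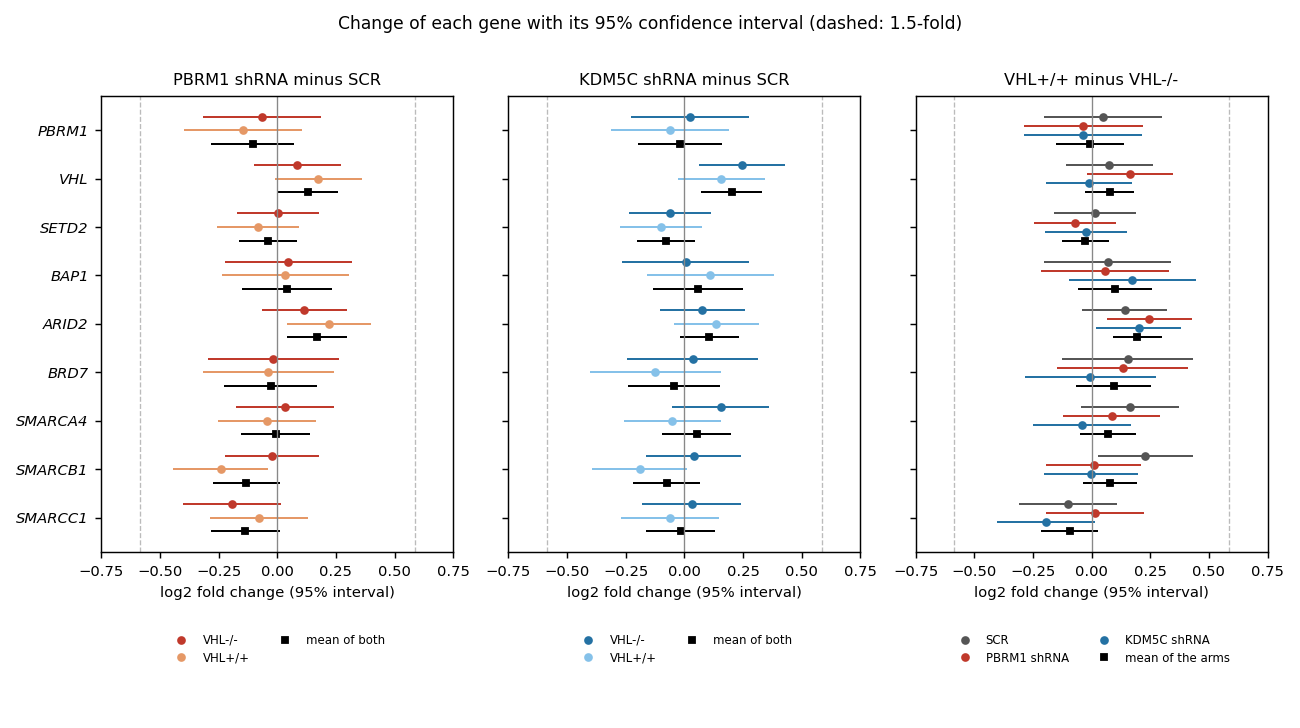
Log2 fold change (x axis) of each of the 9 genes (y axis) with its 95% confidence interval from limma, for PBRM1 shRNA against SCR, KDM5C shRNA against SCR and VHL+/+ against VHL-/- cells; black squares are means over backgrounds or arms. Dashed lines mark a 1.5-fold change, which no interval reached.

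KDM5C shRNA was compared with SCR in the same way. In limma, 0 of 9 genes passed in VHL-/- cells and 0 in VHL+/+ cells, beside 4.78% and 4.19% of all genes, and 1 and 0 were under 0.05 before adjustment, beside 17.5% and 18.4%. The arrays did not overlap for 1 gene (VHL) in VHL-/- cells and for 2 genes (VHL and BRD7) in VHL+/+ cells, beside 22.3% and 26.2% of all genes. On the mean of both backgrounds VHL rose, as 1 gene of 9, beside 11% of all genes (5.46% higher and 5.55% lower), and it was also the only one of the 9 under 0.05 before adjustment, beside 23.5%. A count of 1 in 9 is close to that background.

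VHL read 7.64, 7.82 and 7.85 in VHL-/- SCR cells and 8.06, 7.99 and 8.00 in VHL-/- KDM5C shRNA cells. In VHL+/+ cells it read 7.78, 7.84 and 7.92 with SCR and 7.96, 7.95 and 8.11 with KDM5C shRNA. Every KDM5C shRNA array was above every SCR array of its background. The change was 0.24 (SE 0.087, adjusted p = 0.133) in VHL-/-, 0.16 (SE 0.087, adjusted p = 0.363) in VHL+/+ cells and 0.20 (SE 0.061, adjusted p = 0.0449) on the mean, or 15.0% with a 95% interval from 5.05% to 25.8%. It was 0.22 within chip 1 and 0.17 within chip 2.

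This call stood at the edge of the threshold. It was lost without the chip term (adjusted p = 0.124), with the trend and robust moderation (0.0611) and with the replicate block (0.0549). Of the 18 fits that left out 1 array, 6 kept it. It was lost without replicate 1 or 3 of the VHL-/- SCR cells, any replicate of the VHL+/+ SCR cells, replicate 1 or 2 of the VHL-/- KDM5C shRNA cells, any replicate of the VHL+/+ KDM5C shRNA cells, replicate 2 of the VHL-/- PBRM1 shRNA cells or replicate 3 of the VHL+/+ PBRM1 shRNA cells. The change itself stayed between 0.18 and 0.23 over these fits, with adjusted p from 0.0254 to 0.113.

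With PBRM1 shRNA the VHL signal was 7.72, 7.81 and 8.04 in VHL-/- and 8.16, 7.81 and 8.10 in VHL+/+ cells. The PBRM1 shRNA and SCR arrays overlapped in both backgrounds. On the mean VHL was at 0.13 (SE 0.061, adjusted p = 0.208, unadjusted p = 0.0491), a comparison that shares its SCR arrays with that of KDM5C shRNA. The signal of VHL also served as a look at its re-expression: VHL+/+ minus VHL-/- was 0.08 in SCR, 0.17 in PBRM1 shRNA and -0.01 in KDM5C shRNA cells (adjusted p = 0.766, 0.447 and 0.976). The row therefore did not separate the backgrounds that the HIF targets separated. Whether its probes lie within the introduced VHL sequence is not given in the sources used here, so the row checks no label. TRAP1 (r = 0.85), CPS1 (r = 0.85) and FAM120A (r = 0.83) followed the VHL signal most closely over the 18 arrays.

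In the comparison of VHL+/+ with VHL-/- cells, 0 of 9 genes passed in each of the SCR, PBRM1 shRNA and KDM5C shRNA arms, beside 3.2%, 2.37% and 2.77% of all genes. In each arm 1 gene of 9 was under 0.05 before adjustment in limma: SMARCB1 in SCR and ARID2 in the others, beside 15.6%, 13.5% and 14.9% of all genes. The arrays did not overlap for 2 genes in SCR (ARID2 and BRD7), 1 in PBRM1 shRNA (ARID2) and 0 in KDM5C shRNA cells, beside 25.1%, 19.3% and 18.9% of all genes. On the mean of the 3 arms 1 of 9 genes passed, ARID2, beside 12.2% of all genes (6.03% higher and 6.17% lower), and it was the only one of the 9 under 0.05 before adjustment, beside 24.4%. This count too is close to the background.

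ARID2 rose by 0.20 (SE 0.049, adjusted p = 0.0148, limma) in VHL+/+ cells on the mean of the arms, or 14.5% with a 95% interval from 6.56% to 23.1%. By arm the change was 0.14 in SCR, 0.25 in PBRM1 shRNA and 0.20 in KDM5C shRNA cells (adjusted p = 0.481, 0.169 and 0.271). The KDM5C shRNA arrays read 7.20, 7.24 and 7.57 in VHL-/- and 7.68, 7.37 and 7.57 in VHL+/+ cells, the only arm in which the backgrounds overlapped after the chip effect was removed. The 6 group means ran in the order VHL-/- SCR (7.26 ± 0.070, SD, n = 3), VHL-/- KDM5C shRNA (7.34 ± 0.20), VHL-/- PBRM1 shRNA (7.38 ± 0.043), VHL+/+ SCR (7.40 ± 0.10), VHL+/+ KDM5C shRNA (7.54 ± 0.16) and VHL+/+ PBRM1 shRNA (7.62 ± 0.11), with steps between neighbours that were within 1 SD of the wider group.

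The ARID2 difference was 0.20 within chip 1 and 0.19 within chip 2. It passed in each of the 18 fits that left out 1 array, with changes from 0.16 to 0.22 and adjusted p from 0.00536 to 0.0323, and was lost without the chip term (adjusted p = 0.0613). The genes that followed ARID2 most closely over the 18 arrays were TMEM169 (r = 0.92), GATS (r = 0.92) and MAGED1 (r = 0.92). Among the 9 genes, ARID2 ran against SMARCC1 (r = -0.72) and PBRM1 (r = -0.55), while PBRM1 and SMARCC1 ran together (r = 0.52). On residuals within the groups the values were -0.78, -0.72 and 0.51. These pairs thus varied together between arrays of the same group, and their r does not describe a response to an shRNA or to VHL. They are the 3 largest by size of r among 36 pairs over the same 18 arrays with the chip effect removed, given without a test.

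**Figure D3:**
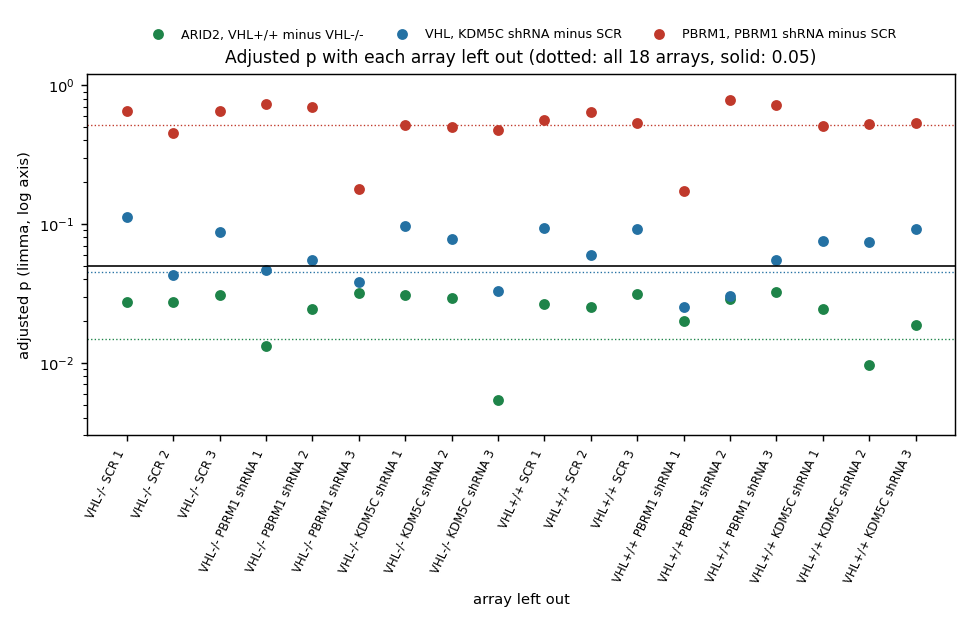
Adjusted p from limma (y axis, log scale) when each of the 18 arrays is left out (x axis), for ARID2 in VHL+/+ against VHL-/- cells, VHL with KDM5C shRNA and PBRM1 with PBRM1 shRNA; dotted lines are the values with all 18 arrays and the solid line is 0.05. ARID2 stayed under 0.05 in 18 of 18 fits and VHL in 6, and PBRM1 did not come under 0.172.

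SETD2 and BAP1 passed in none of the comparisons. SETD2, the H3K36 methyltransferase, changed by -0.10 to 0.004 over the 4 shRNA comparisons and by -0.07 to 0.01 over the 3 VHL comparisons, with adjusted p of 0.584 or higher. Its arrays ran from 8.58 to 8.99, and the lowest was replicate 1 of the VHL+/+ PBRM1 shRNA cells. In VHL-/- cells the PBRM1 shRNA arrays lay above the KDM5C shRNA arrays after the chip effect was removed, the only gene of the 9 for which they did not overlap, beside 8.85% of all genes, with a difference of 0.06 (adjusted p = 0.968). BAP1, the deubiquitinase, changed by 0.005 to 0.11 over the shRNA comparisons and by 0.06 to 0.17 over the VHL comparisons, with adjusted p of 0.587 or higher. Its residual SD of 0.174 was at percentile 83.8 of all genes, and the VHL-/- PBRM1 shRNA arrays alone ran from 7.52 to 8.08.

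The effects of each shRNA were also compared between the VHL backgrounds, and the difference passed in limma for 0 of the 9 genes, beside 0% of all genes. Before adjustment 0 of the 9 were under 0.05 for either shRNA, beside 4.21% of all genes for PBRM1 shRNA and 7.72% for KDM5C shRNA. Among the 9 genes the largest differences were for SMARCB1, at -0.22 (SE 0.13) for PBRM1 shRNA and -0.23 (SE 0.13) for KDM5C shRNA, both of which use the VHL+/+ SCR arrays. PBRM1 shRNA against KDM5C shRNA also gave 0 passing genes of 9 in either background, beside 0% of all genes, and 1 (SMARCC1 in VHL-/-) and 0 were under 0.05 before adjustment, beside 5.38% and 4.15%. In VHL+/+ cells the arrays of these groups overlapped for all 9 genes, beside 10.7% of all genes that did not. Over the 7 comparisons of single groups, the 95% intervals of the 9 genes stayed between 0.735-fold and 1.36-fold, so a 1.5-fold change of signal was outside every one of them.

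The other subunits of PBAF and BAF were examined next. Of 22 listed, 18 have a row. With PBRM1 shRNA 0 were higher and 1 was lower on the mean of both backgrounds, beside 6.07% higher and 5.66% lower of all genes, with a median of 0.02 against 0.001 over all genes. That gene was BICRAL, a subunit of the BRD9 form of the complex, listed in the table as KIAA0240. It read 8.16, 8.30 and 8.31 in VHL-/- SCR cells and 7.83, 7.90 and 8.15 in VHL-/- PBRM1 shRNA cells. BICRAL fell by 0.29 (adjusted p = 0.0461, kept in 7 of 18 fits with 1 array left out) in VHL-/- cells and fell by 0.21 (adjusted p = 0.0228) on the mean. With KDM5C shRNA it fell by 0.19 on the mean (adjusted p = 0.0432). That made 1 lower and 0 higher of 18, beside 5.55% and 5.46% of all genes, a count close to that background. The PBRM1 shRNA mean was lost without replicate 2 of the VHL-/- SCR, replicate 1 or 2 of the VHL-/- PBRM1 shRNA, replicate 2 of the VHL+/+ SCR or replicate 3 of the VHL+/+ PBRM1 shRNA cells (adjusted p up to 0.0720), and the KDM5C shRNA mean was kept in 6 of 18 such fits. Each of these BICRAL calls was lost in limma without the chip term (adjusted p = 0.130, 0.0668 and 0.114).

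In VHL+/+ against VHL-/- cells 2 of the 18 subunits were higher and 0 lower on the mean of the arms, beside 6.03% higher and 6.17% lower of all genes, with a median of 0.03. SMARCA2 rose by 0.26 (SE 0.063, adjusted p = 0.0112) and SMARCD3 (BAF60C), an accessory subunit known from heart and muscle, by 0.21 (SE 0.042, adjusted p = 0.00349). SMARCD3 read 7.21, 7.17 and 7.35 in VHL-/- SCR cells and 7.39 to 7.60 in VHL+/+ SCR cells. SMARCA2 read 9.42, 9.30 and 9.34 in the former and 9.57, 9.66 and 9.51 in the latter. Both genes were thus higher on every VHL+/+ SCR array than on every VHL-/- SCR array. In that arm 25.1% of all genes did not overlap after the chip effect was removed. On the mean of the arms both passed in 18 of 18 fits that left out 1 array. In the SCR, PBRM1 shRNA and KDM5C shRNA arms alone 0 of the 18 subunits passed, beside 3.2%, 2.37% and 2.77% of all genes. In the shRNA arms taken alone, SMARCA2 was at 0.30 and 0.26 (adjusted p = 0.206 and 0.253).

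Among partners of VHL in the ligase and in HIF hydroxylation, 10 of 11 have a row, as HIF1A has none. On the mean of the arms 2 were lower in VHL+/+ cells and 0 higher, beside 6.17% and 6.03% of all genes, with a median of -0.07. EGLN3, a HIF prolyl hydroxylase that is itself a HIF target, fell by 0.95 (adjusted p = 3.26e-06) and EGLN1, the main hydroxylase of HIF-alpha, fell by 0.20 (adjusted p = 0.0107). With KDM5C shRNA EGLN3 rose by 0.80 in VHL-/- cells (adjusted p = 0.00654), where the arrays read 8.06, 7.80 and 8.87 against 7.25, 7.21 and 7.87 with SCR. This call was lost without the chip term (adjusted p = 0.118), and within each chip every KDM5C shRNA array read above every SCR array. On the mean of both backgrounds EGLN3 rose by 0.38 with KDM5C shRNA (adjusted p = 0.0389, limma). That call was kept in 10 of 18 fits with 1 array left out and lost without the chip term (adjusted p = 0.251). The EGLN3 value in VHL+/+ cells was -0.04 (adjusted p = 0.921), so the mean comes from the VHL-/- arrays. EPAS1, which encodes HIF-2 alpha, rose by 0.61 on the mean with PBRM1 shRNA (SE 0.15, adjusted p = 0.0146) and by 0.56 with KDM5C shRNA (adjusted p = 0.0249). In VHL-/- cells its signal ran from 8.80 to 9.71 with SCR and from 9.79 to 9.97 with PBRM1 shRNA, without overlap. After the chip effect was removed, 24.1% of all genes did not overlap there. In VHL+/+ cells it ran from 9.13 to 10.00 with SCR and from 9.67 to 10.38 with PBRM1 shRNA, with overlap. EPAS1 passed with PBRM1 shRNA in neither background alone. On the means 1 of the 10 partners was higher with PBRM1 shRNA and 2 with KDM5C shRNA, beside 6.07% and 5.46% of all genes, and 0 were lower. Both EPAS1 calls were lost without the chip term (adjusted p = 0.160 and 0.210). The KDM5C shRNA value was also lost without replicate 1 of the VHL-/- SCR, replicate 3 of the VHL-/- KDM5C shRNA, replicate 2 of the VHL+/+ SCR or replicate 1 of the VHL+/+ KDM5C shRNA cells (adjusted p up to 0.0666).

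Of the HIF targets, CCND1 rose in VHL-/- cells by 1.39 with PBRM1 shRNA and by 1.34 with KDM5C shRNA, and in VHL+/+ cells by 1.37 and 1.30. It passed in every alternative of these 4 comparisons, in each of which the shared SCR arrays of a background are the reference. Of the 10 targets, 1 was higher and 1 (ADM) lower on the mean with PBRM1 shRNA, beside 6.07% and 5.66% of all genes, with a median of -0.06. With KDM5C shRNA 2 were higher and 1 (ADM) lower, beside 5.46% and 5.55%, with a median of 0.04. The ADM calls were lost without the chip term (adjusted p = 0.291 and 0.255) and kept in 12 and 13 of 18 fits with 1 array left out.

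The lists around BAP1 and SETD2 showed few changes. Of 12 partners of BAP1, 10 have a row. In limma 0 passed in any shRNA or VHL comparison, beside 2.37% to 5.43% of all genes in the single comparisons. On the 3 means the shares of all genes that passed were 11.7%, 11% and 12.2%. Under 0.05 before adjustment were 1, 1 and 3 partners on these means, beside 23.7%, 23.5% and 24.4% of all genes. All 11 SETD2 partners and H3K36 enzymes have a row. On the means, 1 of 11 passed in limma with KDM5C shRNA and was lower, beside 5.55% lower of all genes. It was POLR2A, the large subunit of RNA polymerase II, which fell by 0.25 (SE 0.062, adjusted p = 0.0162). With PBRM1 shRNA and in the VHL comparison 0 of 11 passed, beside 11.7% and 12.2% of all genes. Before adjustment 0 and 1 were under 0.05 in these, beside 23.7% and 24.4%. POLR2A read 10.42, 10.35 and 10.39 in VHL-/- SCR cells and 10.31, 10.18 and 10.06 in VHL-/- KDM5C shRNA cells, without overlap. After the chip effect was removed, 22.3% of all genes did not overlap in that comparison, and POLR2A did not pass in it.

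Of 14 other genes mutated in kidney cancer, 10 have a row. With PBRM1 shRNA 1 was higher and 2 were lower on the mean, beside 6.07% and 5.66% of all genes, with a median of -0.03. With KDM5C shRNA 1 was higher and 2 were lower, beside 5.46% and 5.55%, with a median of -0.02. KDM6A, an H3K27 demethylase listed as UTX, fell by 0.25 with PBRM1 shRNA (adjusted p = 0.0189) and fell by 0.26 with KDM5C shRNA (adjusted p = 0.0174). It read 7.73, 7.69 and 7.66 in VHL-/- SCR, 7.54, 7.11 and 7.38 in VHL-/- PBRM1 shRNA and 7.26, 7.30 and 7.43 in VHL-/- KDM5C shRNA cells. Every shRNA array of the VHL-/- background was below every SCR array, with changes of -0.35 and -0.36 (adjusted p = 0.0364 and 0.0323, each kept in 13 of 18 fits), and the PBRM1 shRNA mean was lost without replicate 2 or 3 of the VHL+/+ PBRM1 shRNA cells (adjusted p up to 0.0540). ATM, the DNA damage kinase, rose by 0.27 with PBRM1 shRNA (adjusted p = 0.00940) and by 0.23 with KDM5C shRNA (adjusted p = 0.0291). TSC1, a brake on mTOR signalling, fell by 0.23 with KDM5C shRNA (adjusted p = 0.00427) and fell by 0.15 with PBRM1 shRNA (adjusted p = 0.0491), the latter kept in 3 of 18 fits that left out 1 array. The ATM value with KDM5C shRNA was kept in 11 of 18. In VHL-/- cells alone, MTOR, listed as FRAP1, rose by 0.29 with PBRM1 shRNA (adjusted p = 0.0425), a call kept in 8 of 18. In VHL+/+ against VHL-/- cells TSC1 fell by 0.12 on the mean of the arms (adjusted p = 0.0453), a call kept in 3 of 18. In limma without the chip term, MTOR (adjusted p = 0.375) and ATM with KDM5C shRNA (0.0918) were lost. So was TSC1 with PBRM1 shRNA (0.0968) and in the VHL comparison (0.0914). KDM6A was lost in VHL-/- cells with PBRM1 shRNA (0.0595) and KDM5C shRNA (0.0548). The KDM6A means, ATM with PBRM1 shRNA and TSC1 with KDM5C shRNA were kept.

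**Figure D4:**
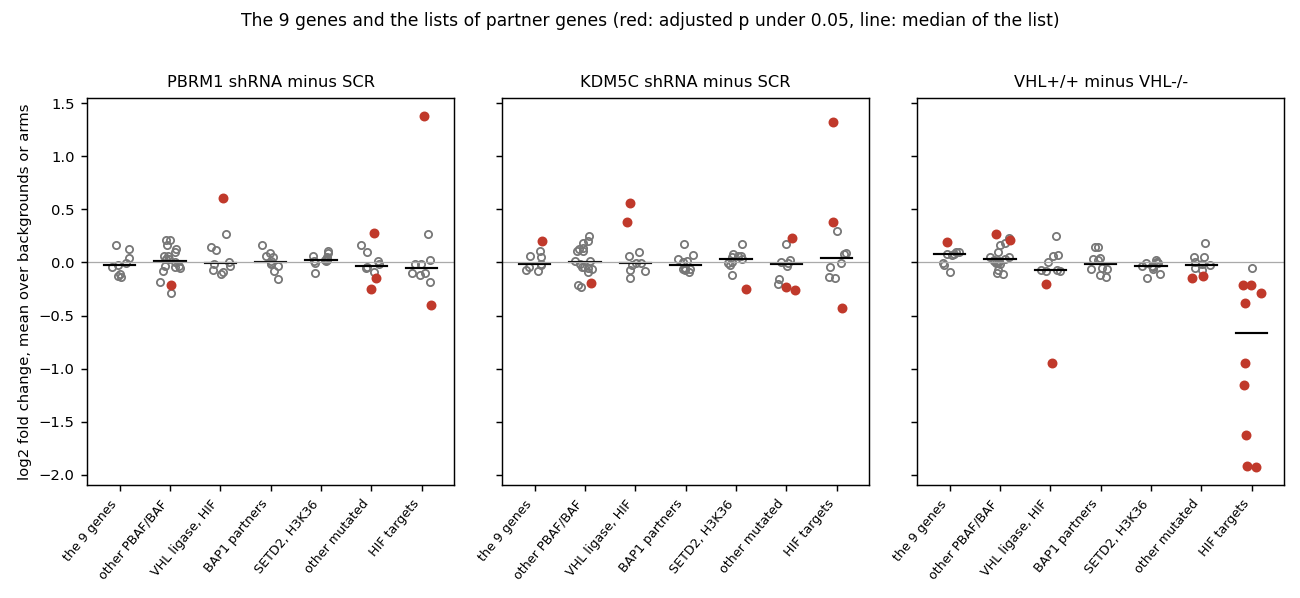
Log2 fold change (y axis) of the 9 genes and of the listed partner genes (x axis, 1 list per column) for PBRM1 shRNA, KDM5C shRNA and VHL, as means over backgrounds or arms; each point is a gene, red points passed at adjusted p under 0.05 in limma and lines are list medians. The 9 genes stayed between -0.14 and 0.20, while the HIF targets in the VHL comparison had a median of -0.67.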

How the data were processed

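RNA of 786-O cells was hybridised to 18 Illumina BeadChip arrays, 3 for each of 6 groups. The authors read the arrays in GenomeStudio and used limma to correct the background to positive values, take logarithms, quantile-normalize and keep probes at a detection threshold of 0.05, with the probes of a gene averaged. The deposited values are these log2 signals, 13141 genes by 18 arrays, and versions are not given in the sources used here. For arrays, the number of arrays limits the precision.

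Group and chip of the labels were the terms of a single limma (3.58.1, R 4.3.3) fit with 11 residual degrees of freedom. The Benjamini-Hochberg adjustment ran over all genes of a comparison. Genes called at a fold of at least 1.5 or 2 were an alternative. Comparisons of each shRNA with SCR share the SCR arrays. A count of groups that do not overlap refers to values with the chip effect removed, where an exact permutation test of 3 arrays against 3 cannot go below 0.1. Symbols were matched to RefSeq names (GRCh38.p14). Named are the 9 genes, the paralogs, the listed genes past the threshold (at most 5 a list and comparison) and the 3 genes most correlated with PBRM1, VHL and ARID2. HIF targets past the threshold are given in part. Some listed genes are not reported here. The fit was tested on simulated data. The fit was repeated without the chip term, with a replicate block, on the arrays of the comparison alone, without the dimmest 0.25 of genes, after median centring or cyclic loess, with trend and robust moderation, and 18 times with 1 array omitted. The genes and lists were chosen with earlier results of these data known.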

Additional observations from a re-analysis of the deposited data

How the results depend on the processing

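Of 126 values (9 genes in 14 comparisons), 123 stayed on their side of the threshold in every alternative run. The exceptions were VHL with KDM5C shRNA, which passed in 10 of 25 alternatives, ARID2 with PBRM1 shRNA, which passed in 3 of 25, and ARID2 in the VHL comparison, which passed in 23 of 24. On the mean of both backgrounds, the count of the 9 genes that passed with PBRM1 shRNA was 1 when only the arrays of the comparison were fitted, and 0 to 1 with 1 array left out. With KDM5C shRNA it was 0 with no chip term, with the replicate block, with trend and robust moderation, and at a fold of 1.5 or 2, and 0 to 1 with 1 array left out. In the VHL comparison it was 0 with no chip term and at a fold of 1.5 or 2. With 1 array left out, PBRM1 in VHL-/- cells ranged from -0.199 to 0.00104, reversed only without replicate 1 of the VHL-/- PBRM1 shRNA cells. The cause was not tested.

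Replicate numbers were not taken to pair the samples, because not every pair of same-numbered arrays correlated above 0.1. Residuals from the group means, with the chip effect left in, were compared between same-numbered arrays. They correlated between -0.17 and 0.47 for number 1, 0.11 and 0.43 for number 2 and 0.07 and 0.72 for number 3. Of 18 arrays, 14 were nearest to one of their own number. Number 3 lay on chip 2 in every group, so number and chip cannot be told apart there. For numbers 1 and 2, both on chip 1, this is a hint from the data and not from the design. As a block in place of the chip, the number moved no count over all genes by more than 1.5 times (714 to 686 with PBRM1 shRNA in VHL-/- cells) and, among the 9 genes, ended the call of VHL (adjusted p = 0.0549).

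Over all genes, dropping the chip term gave 339, 148, 283 and 210 genes for the 4 shRNA comparisons in place of 714, 327, 628 and 551, and 125, 64 and 99 for the 3 VHL comparisons in place of 420, 311 and 364. For the means it gave 818 in place of 1542 with PBRM1 shRNA, 743 in place of 1446 with KDM5C shRNA and 835 in place of 1603 for VHL. A fold of 1.5 left 238, 124, 192 and 150, then 135, 134 and 117, and 176, 157 and 122 for the means, and a fold of 2 left 57, 21, 43 and 23, then 40, 43 and 38, and 33, 27 and 39. With 1 array left out the shRNA counts ranged from 173 to 850 and the VHL counts from 143 to 509, and the means from 1070 to 1768. With only the arrays of the comparison, the VHL comparison gave 671 genes in the SCR, 63 in the PBRM1 shRNA and 45 in the KDM5C shRNA arm, and 1027 genes passed with PBRM1 shRNA in VHL-/- cells. The differences between backgrounds, at 0 genes in the full fit, gave up to 12 and 13 with 1 array left out. PBRM1 and ARID2 lay below the signal of the median gene, and the signal of their probes over background was not tested.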
